A study of Mus musculus with 15 samples.

Results

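The clustered replication-dependent histone genes are the multicopy genes that supply the bulk of the histones packaged onto newly made DNA. They were taken here as every gene of the deposited table whose current symbol names a clustered H1, H2A, H2B, H3 or H4 gene, which gave 67 members among 55984 genes. Of the members, 5 encode the linker histone H1, 18 H2A, 19 H2B, 12 H3 and 13 H4. They sit on chromosome 13 (53 genes), chromosome 3 (10 genes), chromosome 11 (3 genes) and chromosome 6 (1 gene), and no member carried an older symbol of the Hist form.

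The data were bulk RNA-seq of hepatocytes from WT adult male mice of the C57BL/6JJcl strain, with no treatment that differed between groups. Live cells were stained with the DNA dye Hoechst and sorted by total fluorescence into 2n-whole, the diploid cells, and 4n-whole, the tetraploid cells, and the tetraploid cells were further divided by the height of the Hoechst signal into 4n-bottom, enriched for cells with a pair of diploid nuclei, and 4n-top, enriched for cells with a single tetraploid nucleus. Each of 4 mice gave 1 library per population, except that 4n-top had 3 libraries, since the study left out that of mouse 1 for poor RNA quality. The 4n fractions are enriched and not pure, and after sorting the 2n cells were pelleted in a faster and longer spin than the 4n cells, so ploidy and spin cannot be told apart in any comparison with 2n-whole.

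A replication-dependent histone mRNA is known to be made mainly in S phase, to lack introns and to end in a conserved stem-loop in place of a poly(A) tail. The stem-loop is bound by SLBP, and cutting just after it involves the U7 small nuclear RNP. In cells that have left the cycle, as most adult hepatocytes have, some of these genes are known to give longer transcripts with a poly(A) tail, and the replication-independent variants such as H3.3 and H1.0 are made throughout.

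The stem-loop is the sequence that the members share beyond the rule that chose them. A search of the annotated exons on the coding strand (GENCODE M39, GRCm39), by the name of the histone stem-loop motif, matched 46 of the 67 members when the exons of a gene were joined. Searched in each annotated transcript, it matched 45 members and 92 other genes, together 137 of 21642 protein-coding genes (0.633%). A further 15 members held a match within 300 bases past their annotated end, and 6 held neither. The sites of the most abundant members are given here because they mark where the short, tailless form of each mRNA would end, with the stem-loop in capitals and its flanks in lower case.
H1f2: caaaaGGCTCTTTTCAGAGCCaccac
H1f4: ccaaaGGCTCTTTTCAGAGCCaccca
H2ac20: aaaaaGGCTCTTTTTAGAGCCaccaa
H2bc4: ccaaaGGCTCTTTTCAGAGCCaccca
H3c6: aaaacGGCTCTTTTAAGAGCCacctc
H4c4: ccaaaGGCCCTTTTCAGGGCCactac
Taken as stem and loop together, the form of H1f2, H1f4 and H2bc4 was the commonest, found in 27 members. The form of H4c4 was found in 7 and that of H3c6 in 5. The H3c6 and H2ac20 forms have the same stem as H1f2 and differ from it in the loop alone. The annotated exon of H1f2 ran on for 840 bases after the stem-loop and that of H1f4 for 1153. That of H3c6 ran on for 369 and that of H4c4 for 770, whereas that of H2ac20 ended 57 bases after it. In H2bc4, 2073 bases of the joined exons came after the stem-loop, and none of its 5 annotated transcripts has a single exon. Reads over the gene body are counted alike whichever end the transcript has, so the short and the long forms cannot be told apart in these counts.

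The promoters of H1f4 and H1f2, the leading linker histone genes, are shown because the clearest difference between the populations lay in the H1 genes. Each sequence is the 250 bases before the annotated start in GRCm39, read 5′ to 3′ on the coding strand, with 3 motifs in capitals, namely the TATA box, searched as TATAAA, the CCAAT motif, and the H1 box, searched as AAACACA.
H1f2 (chr13:23922541-23922790, plus strand): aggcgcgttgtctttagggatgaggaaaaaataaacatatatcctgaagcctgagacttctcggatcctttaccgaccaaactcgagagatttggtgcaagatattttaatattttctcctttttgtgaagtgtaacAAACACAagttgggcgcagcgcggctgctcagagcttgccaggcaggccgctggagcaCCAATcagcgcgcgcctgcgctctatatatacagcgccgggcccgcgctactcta
H1f4 (chr13:23806542-23806791, minus strand): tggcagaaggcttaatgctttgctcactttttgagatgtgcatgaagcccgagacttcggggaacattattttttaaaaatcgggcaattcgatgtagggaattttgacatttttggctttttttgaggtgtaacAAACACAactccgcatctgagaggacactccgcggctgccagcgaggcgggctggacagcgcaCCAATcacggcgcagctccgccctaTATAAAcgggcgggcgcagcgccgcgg
Both hold an H1 box followed by a CCAAT box. Searched on both strands, the H1 box letters were in 3 of 5 H1 promoters and in 6.546% of 21770 protein-coding promoters, and in 0 of 13 H4 promoters. The H1 promoters with it were those of H1f2, H1f4 and H1f5, and those of H1f1 and H1f3 lacked it. CCAAT was in 18 of 18 H2A promoters, 17 of 19 H2B promoters and 3 of 13 H4 promoters, against 36.141% of all. TTTGCAT, the core of the octamer, was in 7 of 18 H2A and 7 of 19 H2B promoters, against 4.231% of all, and in 0 of 5 H1 promoters. These are matches of letters in this window and no evidence of binding.

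The histone genes were represented very unequally in these cells. Levels are given as CPM, which are counts scaled to a common library size by the TMM method, and, where genes are set beside each other, as CPM per kb of annotated exon averaged over the 15 libraries. H1f2, a linker histone gene, stood highest at 71.2 CPM per kb, followed by the linker histone gene H1f4 at 32.2, the H2B gene H2bc4 at 26.1 and the H4 genes H4c4 at 24.0 and H4c3 at 14.1. For comparison, the median of all tested protein-coding genes was 1.82 CPM per kb. The order depends on the annotated exon length, which for H1f3 was 7425 bases, so that its 12.9 CPM came to 1.74 CPM per kb.

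The leading H3 genes were H3c6 at 10.3, H3c1 at 8.77 and H3c11 at 1.83 CPM per kb, and no H2A gene passed the 3.00 CPM per kb of H2ac20. Among the tested genes, the next of H2A were H2ac4 at 1.43 and H2ac15 at 0.375 CPM per kb, and the H2B genes H2bc8 and H2bc11 had 5.80 and 0.457. H1f1 had 6.17 and H4c1 had 3.06 CPM per kb. Of all 178551 counts that fell on the 67 members, 54.7% were on H1 genes, 25.5% on H2B, 13.5% on H4, 5.10% on H3 and 1.15% on H2A. H1f2, H2bc4, H1f4 and H4c4 alone took 80.9% of them.

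A total of 33 members passed the filter on low counts and were tested, namely 5 H1, 5 H2A, 7 H2B, 8 H3 and 8 H4 genes. The other 34 had at most 0.159 CPM as their mean, and 9 of them, H2ac1, H2ac13, H2ac18, H2ac19, H2bc18, H2bc27, H3c13, H3c14 and H4c8, had 0 counts in all 15 libraries. A count of 0 allows a level of up to 3 counts, which was 0.0693 to 0.120 CPM in a library, for counting error only. As a gauge of signal at genes that hepatocytes are not known to use, the 99th percentile of 1012 olfactory receptor genes was 0.0411 CPM per kb, and 47 members lay above it while 20 lay at or below it.

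**Figure D1:**
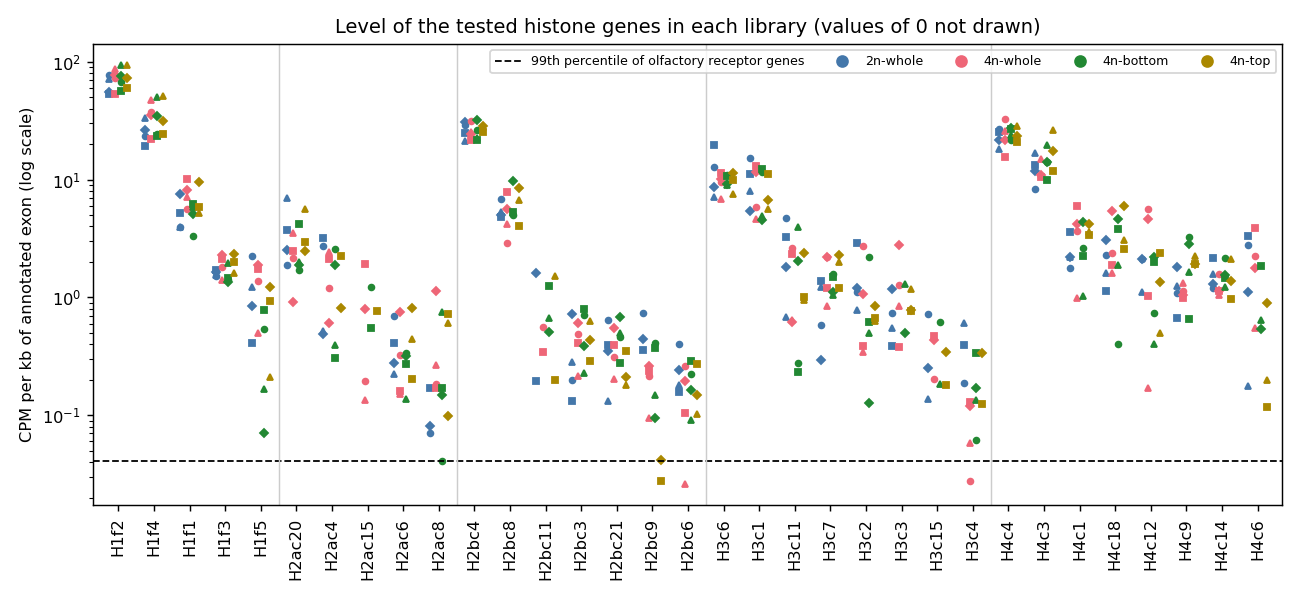
CPM per kb of annotated exon (log axis) of the 33 tested histone genes, grouped by type from H1 on the left to H4 on the right, with 1 point per library, coloured by population and shaped by mouse as in the plot of summed levels. H1f2, H1f4, H2bc4 and H4c4 stand above 10 in every library, and the dashed line is the 99th percentile of olfactory receptor genes (0.0411).

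Near-identical copies limit what a gene count can show here. Of the 67 members, 24 had under 50% of their 100-base exon windows found once in GRCm39, and 5 (H2ac19, H2ac23, H2ac24, H2bc23 and H2bc24) had none. The tested members had a median of 84.9% unique windows and the untested ones a median of 42.9%. How reads that map to several places were counted is not given in the sources used here, so a low count on a repeated copy may be a low level or reads left out, and these cannot be told apart. H1f2 (94.9%), H1f4 (97.0%) and H4c4 (100%) were largely unique, as was H2bc4 (88.7%), whereas H3c6 (57.1%) and H2bc8 (55.1%) were less so.

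**Figure D2:**
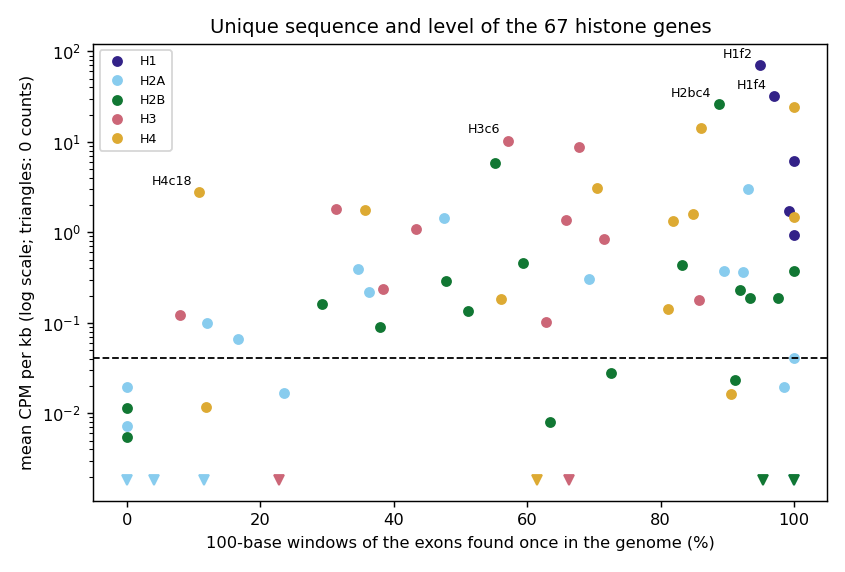
Mean CPM per kb over the 15 libraries (log axis) against the percentage of 100-base exon windows found once in the genome, with 1 point per histone gene, coloured by type. The 9 genes with 0 counts are drawn as triangles at the bottom, below the axis values of the others, and the dashed line is the 99th percentile of olfactory receptor genes.

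Summed over all members, histone transcripts amounted to 324 ± 22.7 CPM in 2n-whole (SD, n = 4), 355 ± 47.5 in 4n-whole (n = 4), 349 ± 49.8 in 4n-bottom (n = 4) and 370 ± 63.8 in 4n-top (n = 3). The ranges of the populations overlapped. In bulk samples, fewer cells that express a gene and less RNA per cell cannot be told apart, and CPM is a share of the library, so the RNA content of a 4n and a 2n cell does not enter it.

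Linker histones made the larger part of what difference there was. Summed H1 was 181, 137, 191 and 155 CPM in 2n-whole of mice 1 to 4, and 205, 149, 243 and 214 CPM in 4n-whole of the same mice. Every mouse was higher in 4n-whole, by a within-mouse log2 difference of 0.28 ± 0.16 (SD, n = 4), although the populations overlapped. In 4n-bottom summed H1 was 165, 150, 262 and 199 CPM, higher than in 2n-whole in 3 of 4 mice (log2 difference 0.20 ± 0.27). In 4n-top of mice 2 to 4 it was 160, 260 and 199 CPM, higher than in 2n-whole in 3 of 3 mice (0.34 ± 0.11). Against 4n-bottom, 4n-top differed by 0.03 ± 0.06 (n = 3), within the spread between mice.

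The core histones showed no shift of one direction. Within mice, 4n-whole minus 2n-whole was -0.02 ± 0.55 on the log2 scale for summed H2A, -0.06 ± 0.23 for H2B, -0.17 ± 0.54 for H3 and 0.03 ± 0.32 for H4 (SD, n = 4). Each of these is smaller than its spread between mice, and with total counts in place of TMM all 4 lay above 0, at 0.04 to 0.24. Between 4n-top and 4n-bottom, summed H2A, the least abundant type, was higher in 3 of 3 mice by 0.55 ± 0.39, from 3.27 ± 0.71 CPM in 4n-bottom to 4.53 ± 0.15 CPM in 4n-top, while H2B (0.09 ± 0.26), H3 (0.13 ± 0.36) and H4 (0.04 ± 0.29) differed by less than their spread. No test was made on these sums, since the members were chosen with results of these data known.

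**Figure D3:**
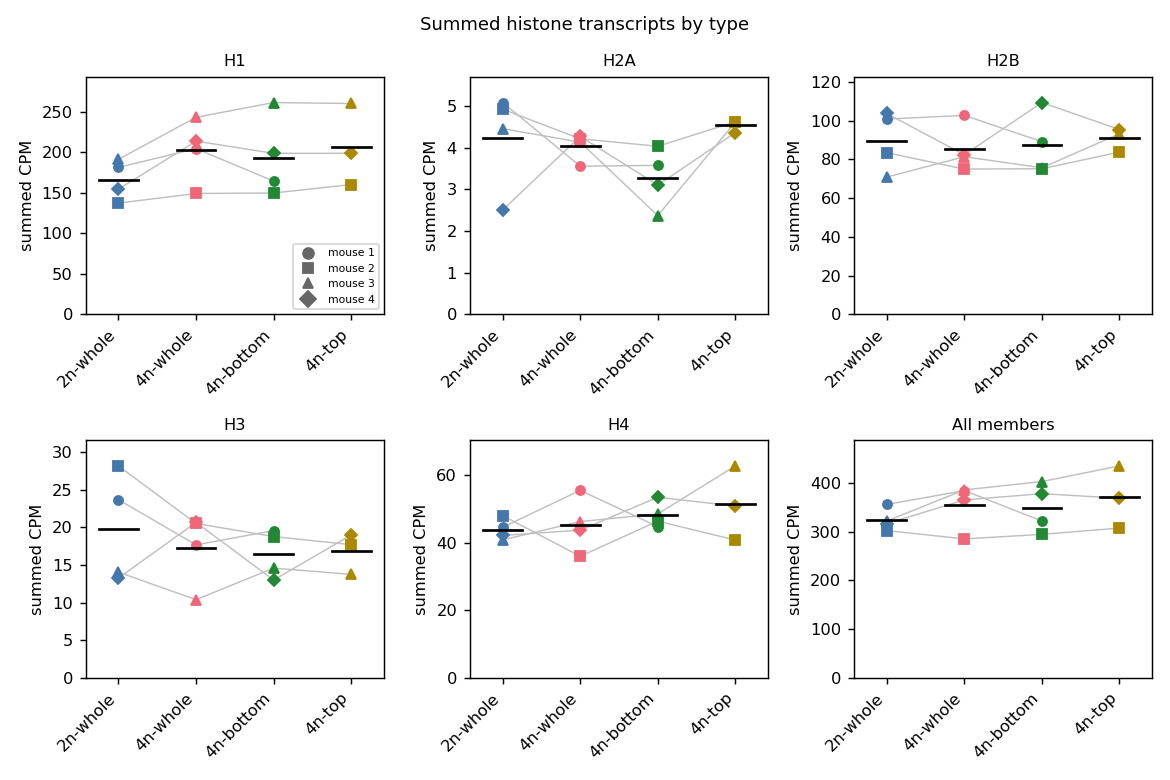
Summed CPM of the members of each histone type and of all 67, by population, with 1 point per library, shaped by mouse and joined within a mouse by grey lines, and the mean as a black bar. H1 is higher in 4n-whole than in 2n-whole in 4 of 4 mice, and the lines of the other types cross.

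The first gene-by-gene comparison was of 4n-whole with 2n-whole, that is, of tetraploid with diploid hepatocytes. None of the 33 tested members was called by edgeR at an adjusted p under 0.05 with an absolute log2 fold change above 0.5, where 3.47% of all 17488 tested genes were. At an unadjusted p under 0.05 there were 3 members, H1f4, H1f1 and H2ac15, against 20.4% of all genes. The median log2 fold change of the tested members was 0.02, beside -0.01 over all tested genes. By type the median was 0.24 for H1, with 5 of 5 genes above 0, 0.40 for H2A, with 3 of 5 (H2ac15, at 0 counts in 2n-whole, among them), -0.16 for H2B, with 1 of 7, -0.23 for H3, with 3 of 8, and 0.14 for H4, with 5 of 8. Over all tested genes 49.3% were above 0.

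H1f4 was the only member past an adjusted p of 0.05 in edgeR. It had 45.3, 37.5, 63.9 and 50.4 CPM in 2n-whole of mice 1 to 4, and 72.7, 42.5, 90.7 and 68.4 CPM in 4n-whole. The value was higher in 4n-whole in every mouse, and mouse 2 was lowest and mouse 3 highest in both populations, so that the groups overlapped although each pair moved the same way. The log2 fold change was 0.46 (SE 0.11, 95% interval 0.23 to 0.69, adjusted p = 0.0144 in edgeR's quasi-likelihood test with the mouse as block), below the fold limit, and 5.47% of all tested genes passed this adjusted p alone. Without the mouse block the log2 fold change of H1f4 was 0.48 (adjusted p = 0.50 in edgeR), and without mouse 4 it was 0.46 (adjusted p = 0.103 in edgeR). Neither value passed the threshold, as was so when the fit held the libraries of these populations alone (0.45, adjusted p = 0.0613 in edgeR). The fold limit was passed with library totals in place of TMM, a scaling chosen after seeing the data (0.67, adjusted p = 0.000515 in edgeR), under which 3 members, H1f4, H1f1 and H2ac15, were called, against 8.63% of all tested genes. The exon of H1f4 (chr13:23804612-23806541, minus strand) shares 528 of its 1930 bases with annotated transcripts of the same strand that belong to H2bc6, itself at 0.190 CPM per kb, and to Gm11398.

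H1f2, the most abundant member, had a smaller estimate. It had 120, 83.2, 112 and 85.9 CPM in 2n-whole and 113, 82.5, 137 and 121 CPM in 4n-whole of mice 1 to 4, higher in 2 of 4 mice. Its log2 fold change was 0.16 (95% interval -0.04 to 0.37, adjusted p = 0.384 in edgeR). H1f1, the H1 gene next in level per kb, had 2.91, 3.86, 2.92 and 5.63 CPM in 2n-whole and 4.17, 7.46, 5.22 and 6.07 CPM in 4n-whole, higher in 4 of 4 mice with overlapping groups (log2 fold change 0.60, SE 0.24, adjusted p = 0.142 in edgeR).

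**Figure D4:**
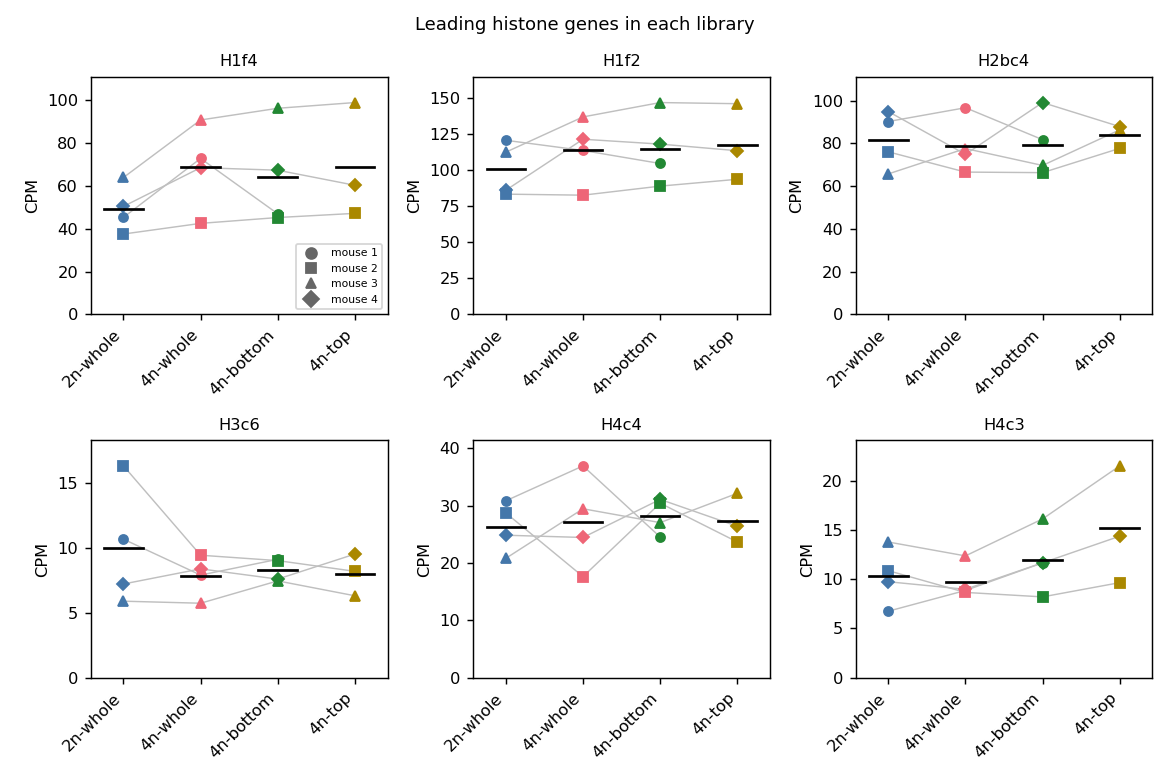
CPM of H1f4, H1f2, H2bc4, H3c6, H4c4 and H4c3 in each library by population, with 1 point per library, shaped by mouse and joined within a mouse by grey lines, and the mean as a black bar. For H1f4 every grey line runs upward from 2n-whole to 4n-whole, and mouse 3 is highest and mouse 2 lowest in all 4 populations.

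The leading core histone genes had narrow intervals. H2bc4 had 90.2, 76.0, 65.7 and 94.8 CPM in 2n-whole and 96.6, 66.5, 77.6 and 74.8 CPM in 4n-whole, with a log2 fold change of -0.05 and a 95% interval of -0.26 to 0.17. H4c4 had 30.9, 28.7, 20.8 and 24.9 CPM in 2n-whole and 36.9, 17.6, 29.5 and 24.5 CPM in 4n-whole, with a log2 fold change of 0.02 (-0.30 to 0.35). For both genes 2 of 4 mice were higher, and both intervals lie inside the fold limit of 0.5.

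H3c6 had 10.7, 16.36, 5.91 and 7.24 CPM in 2n-whole and 7.93, 9.46, 5.76 and 8.41 CPM in 4n-whole (log2 fold change -0.30, 95% interval -0.71 to 0.10). H4c3 had 6.75, 10.9, 13.8 and 9.74 CPM in 2n-whole and 8.86, 8.66, 12.36 and 8.98 CPM in 4n-whole (-0.07, -0.42 to 0.28). The groups overlapped for both. Among the other named core histone genes the log2 fold change was -0.69 for H2ac20, 0.40 for H2ac4, -0.16 for H2bc8, -0.25 for H2bc11, -0.49 for H2bc9, -0.15 for H3c1, -0.73 for H3c11 and 0.46 for H4c1, with intervals that all include 0 and adjusted p between 0.392 and 0.975 in edgeR.

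H2ac15, an H2A gene whose listed exon is the coding sequence alone, was at 0 counts in all 4 libraries of 2n-whole and had 3, 19, 2 and 10 counts in 4n-whole of mice 1 to 4. The counts of mice 1 and 3 in 4n-whole were no more than the 3 that a count of 0 allows. The adjusted p was 0.0788 in edgeR, and no fitted fold is given against a group that is at 0 throughout. In 4n-bottom it had 17, 9, 0 and 0 counts and in 4n-top of mice 2 to 4 it had 13, 0 and 0, so mice 1 and 2 carried its signal there. DESeq2 with the mouse block called 4 members in this comparison, against 11.7% of the 39304 genes it gave an adjusted p, and 1 of them, H2ac15, had passed the filter of edgeR. It gave H2ac15 an adjusted p of 0.0411, and ComBat-seq followed by DESeq2 gave 0.0135.

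Next, 4n-top was compared with 4n-bottom, mixed fractions of equal DNA content that are enriched for single and paired nuclei. The paper reports that genes of liver zones also differed between them, so nuclear number and zone cannot be told apart. None of the 33 members was called by edgeR, where 0.0114% of all tested genes were, and DESeq2 called 1 member against 7.64% of its genes, namely H2bc24, which did not pass the filter of edgeR and has no unique window and 14 counts in all. The median log2 fold change of the tested members was 0.10, and 20 of 33 were above 0. For the abundant members the intervals were narrow, and they describe the mixed fractions, not pure cells of each kind. The 95% interval of the log2 fold change was -0.18 to 0.32 for H1f4, -0.17 to 0.28 for H1f2, -0.08 to 0.39 for H2bc4 and -0.36 to 0.35 for H4c4, around estimates of 0.07, 0.06, 0.16 and 0.00.

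H2bc9 was the single member at an unadjusted p under 0.05 between the tetraploid fractions, against 2.79% of all genes. This H2B gene had 24, 26, 8 and 6 counts in 4n-bottom of mice 1 to 4 and 2, 0 and 2 counts in 4n-top of mice 2 to 4. The adjusted p was 1.00 in edgeR, and no fold is given since every 4n-top library was below the floor of 3 counts. Its counts in 2n-whole were 50, 20, 0 and 26 and in 4n-whole 14, 10, 6 and 14, so the 0 of mouse 3 in 2n-whole lay below every 4n-whole library.

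**Figure D5:**
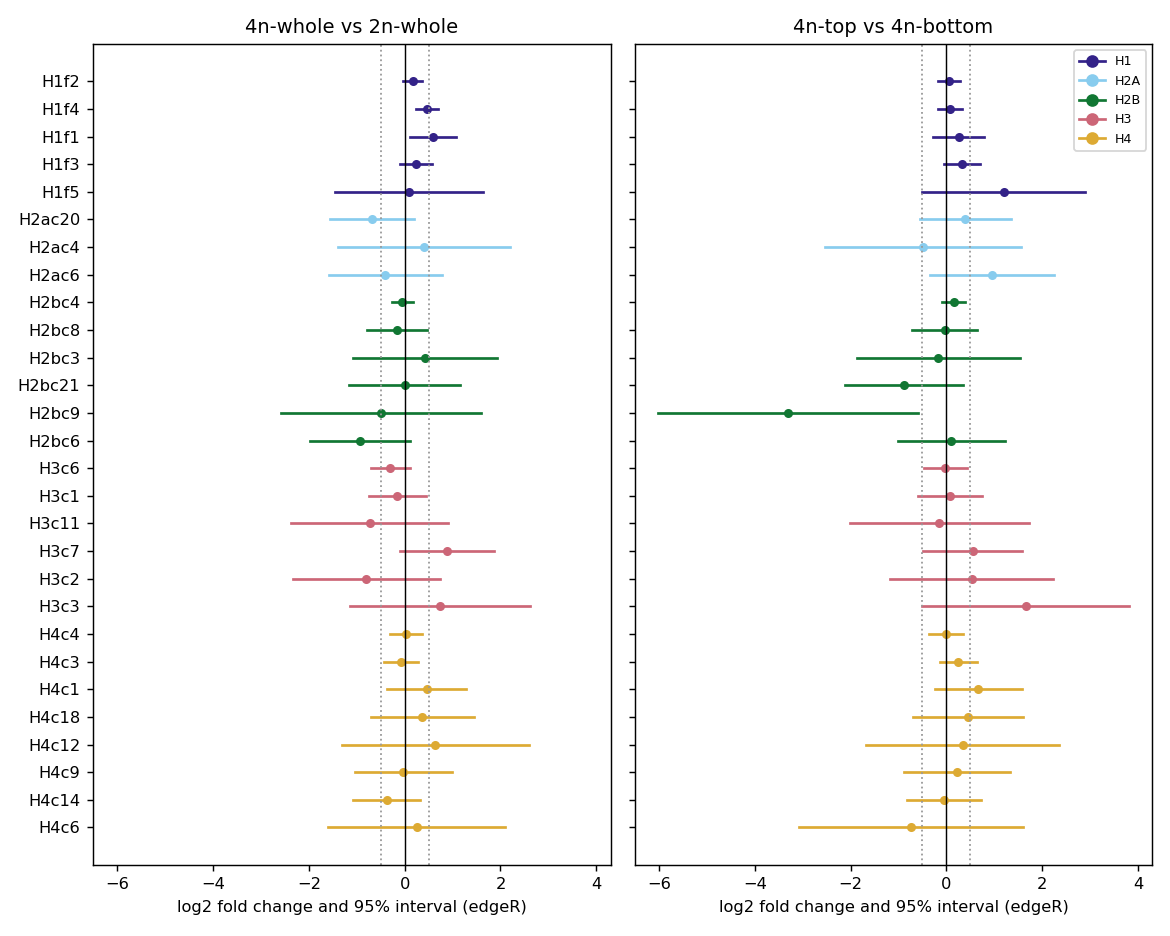
Log2 fold change (point) and 95% interval (line) from edgeR for 28 tested histone genes, coloured by type, in 4n-whole against 2n-whole on the left and 4n-top against 4n-bottom on the right, with dotted lines at the fold limit of 0.5. The 5 genes with a standard error of 1.5 or more in any comparison are not drawn, and the intervals of H1f4 and H1f1 on the left lie wholly above 0. H2bc9 on the right rests on 0 to 2 counts per 4n-top library, so its point is no measure of size.

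Each tetraploid fraction was also set against 2n-whole. These comparisons share the 2n-whole libraries with the first, so their values are given side by side and are no independent support for it. In 4n-bottom against 2n-whole none of the 33 members was called by edgeR (0.463% of all tested genes were, and 0.492% by the adjusted p alone), 3 had an unadjusted p under 0.05 (10.2% of all), and DESeq2 called 2, H2ac22 and H2bc23, against 9.84% of its genes, neither of which had passed the filter of edgeR. Of the 3 members at an unadjusted p under 0.05 there, H1f4 and H2ac15 were higher in 4n-bottom and H1f5 was lower. The H1 genes did not move together, with a median log2 fold change of -0.002 and 2 of 5 above 0. In 4n-top against 2n-whole the H1 median was 0.26, with 4 of 5 above 0. In 4n-top against 2n-whole none was called by edgeR (0.961% of all, and 1.06% by the adjusted p alone), 5 had an unadjusted p under 0.05 (11.3% of all), and DESeq2 called 4, against 11.3% of its genes, of which 1, H2bc9, had passed that filter. With library totals in place of TMM, edgeR called 1 member, H1f4, in 4n-top against 2n-whole (0.57, adjusted p = 0.0132), where 2.4% of all tested genes were called.

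H1f4 had 46.9, 45.2, 96.1 and 67.2 CPM in the 4n-bottom libraries of mice 1 to 4, and the 4n-top libraries of mice 2 to 4 had 47.1, 98.8 and 60.2 CPM, above 2n-whole of the same mouse in 4 of 4 and 3 of 3 mice. The log2 fold change over 2n-whole was 0.34 in 4n-bottom (SE 0.11, adjusted p = 0.252 in edgeR) and 0.40 in 4n-top (SE 0.12, adjusted p = 0.134 in edgeR), neither past the threshold. For H1f2 the values were 104, 88.7, 147 and 118 CPM in 4n-bottom, beside 93.4, 146 and 113 CPM in 4n-top, with log2 fold changes of 0.18 (SE 0.10, adjusted p = 0.568 in edgeR) and 0.24 (SE 0.11, adjusted p = 0.425 in edgeR). H4c3 in 4n-top had 9.65, 21.5 and 14.36 CPM, a log2 fold change of 0.45 over 2n-whole (adjusted p = 0.333 in edgeR) with 2 of 3 mice higher, and H2bc9, with its 0 to 2 counts in 4n-top, had an adjusted p of 0.280 in edgeR.

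The machinery that makes histone mRNA was measured beside the genes themselves. Of 23 factors of histone mRNA synthesis and processing, all 23 were tested and none was called by edgeR or DESeq2 in any of the 4 comparisons. At an unadjusted p under 0.05 there were 7, 0, 2 and 1 of them in 4n-whole against 2n-whole, 4n-top against 4n-bottom, 4n-bottom against 2n-whole and 4n-top against 2n-whole. Of all tested genes, 20.4%, 2.79%, 10.2% and 11.3% were at this p, in the same order. Slbp, which encodes the stem-loop binding protein, had 8.65 ± 1.39 CPM in 2n-whole, 7.68 ± 1.83 in 4n-whole, 9.59 ± 0.98 in 4n-bottom and 9.80 ± 2.55 in 4n-top. Npat, the coactivator of histone genes at the G1/S boundary, had 8.85 ± 2.01, 7.33 ± 2.99, 6.60 ± 0.99 and 6.28 ± 0.46 CPM in the same order. The smallest p among these factors belonged to Hinfp, a transcription factor of H4 genes, in 4n-whole against 2n-whole (log2 fold change 0.56, SE 0.20, adjusted p = 0.104 in edgeR). In the other comparisons it belonged to Lsm10, a U7 snRNP protein (0.59, adjusted p = 1.00 in edgeR, 4n-top against 4n-bottom), Mif4gd, a partner of SLBP in translation (0.44, adjusted p = 0.149, 4n-bottom against 2n-whole), and Eri1, a nuclease of histone mRNA ends (0.46, adjusted p = 0.271, 4n-top against 2n-whole).

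The replication-independent variants were far from absent. H3f3b, which encodes H3.3, had 303 ± 56.8 CPM in 2n-whole and 407 ± 120 in 4n-whole, with a log2 fold change of 0.41 (SE 0.10, adjusted p = 0.0192 in edgeR), past the adjusted p but below the fold limit, which it passed with library totals in place of TMM (0.62). H3f3a, which encodes the same protein, had 43.1 ± 5.61 and 35.7 ± 6.48 CPM (log2 fold change -0.27, adjusted p = 0.238 in edgeR). H1f0, the linker variant of resting cells, had 58.0 ± 1.67 and 61.8 ± 9.41 CPM (0.08, adjusted p = 0.725 in edgeR), and H2az1 had 18.8 ± 0.88 and 14.5 ± 1.94 CPM (-0.39, adjusted p = 0.0977 in edgeR). Of 14 variants 10 were tested, and none was called by edgeR in any comparison. At an unadjusted p under 0.05 there were 5, 0, 1 and 0 in the order above, beside 20.4%, 2.79%, 10.2% and 11.3% of all tested genes. DESeq2 called 1 variant, the testis variant H2al2a, which had 12 counts in all, in 1 library of 4n-bottom. In the other comparisons the smallest p belonged to H2az2 (log2 fold change -0.23, 4n-top against 4n-bottom), Cenpa, the centromeric H3 (0.72, 4n-bottom against 2n-whole), and Macroh2a1 (0.18, 4n-top against 2n-whole), with adjusted p of 1.00, 0.459 and 0.587 in edgeR.

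Histone chaperones, the carriers of free histones, were likewise not called by edgeR or DESeq2 in any comparison (24 of 24 tested). In the same order, 3, 0, 2 and 0 had an unadjusted p under 0.05, beside 20.4%, 2.79%, 10.2% and 11.3% of all tested genes. The smallest p belonged to Nap1l1 (log2 fold change -0.33, 4n-whole against 2n-whole), Dnajc9 (0.46, 4n-top against 4n-bottom), Spty2d1 (-0.32, 4n-bottom against 2n-whole) and Ssrp1 (0.24, 4n-top against 2n-whole), with adjusted p of 0.123, 1.00, 0.371 and 0.512 in edgeR.

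Genes of S phase, the phase in which these histones are made, lay mostly lower in 4n-whole with TMM scaling. Of 33 genes on the list 32 were tested, and 25 of them lay below 0 in 4n-whole against 2n-whole, with a median log2 fold change of -0.27. Library totals in place of TMM shift log2 differences in this comparison upward by 0.21, most of the size of that median. There edgeR called 2 of them lower (3.47% of all tested genes were called) and 5 had an unadjusted p under 0.05 (20.4% of all). DESeq2 called 3 lower, where it called 11.7% of its genes. Of those called by edgeR, Pola1, the catalytic subunit of the primase-polymerase, fell by 0.64 on the log2 scale (SE 0.19, adjusted p = 0.0449 in edgeR). In 4n-bottom against 2n-whole edgeR called 1 gene (0.463% of all), the helicase subunit Mcm5, which fell by 1.77 (SE 0.41, adjusted p = 0.0466 in edgeR). There 6 had an unadjusted p under 0.05 (10.2% of all), and DESeq2 called 3 (9.84% of its genes). No S phase gene was called by edgeR in the other comparisons, where Gmnn (1.05, 4n-top against 4n-bottom, adjusted p = 1.00 in edgeR) and Pola1 (-0.70, 4n-top against 2n-whole, adjusted p = 0.134 in edgeR) had the smallest p. At an unadjusted p under 0.05 there were 2 and 3 genes in these (2.79% and 11.3% of all), and DESeq2 called 0 and 2 (7.64% and 11.3% of its genes). The Pola1 and Mcm5 calls did not pass the adjusted p of edgeR without the mouse block (0.313 and 0.999), without mouse 4 (0.293 and 0.0633) or with library totals in place of TMM (0.135 and 0.0541). Mki67, the proliferation marker, had 1.13 ± 1.22 CPM in 2n-whole and 2.08 ± 2.45 in 4n-whole (adjusted p = 0.248 in edgeR), with an SD above the mean in both.

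RNAs without a poly(A) tail were looked at because the library chemistry and the counting decide whether such transcripts are seen. Of 12 listed genes, 8 had 0 counts in every library, among them Terc and Rnu7, the U7 RNA itself, while Rn7sk stood at 2627 ± 582 CPM in 2n-whole and 3339 ± 580 in 4n-whole. Rn7sk (log2 fold change 0.35, SE 0.10, adjusted p = 0.0280 in edgeR) and the nucleus-retained Malat1, which is known to lack a regular tail (0.42, SE 0.10, adjusted p = 0.0154 in edgeR) were higher in 4n-whole than in 2n-whole, both below the fold limit as H1f4 was, and both above it with library totals in place of TMM (0.56 and 0.63). None of the listed RNAs was called by edgeR or DESeq2 in any comparison. Of the 2 tested tailless RNAs, 1, 0, 2 and 1 had an unadjusted p under 0.05, beside 20.4%, 2.79%, 10.2% and 11.3% of all tested genes. The part that a difference in tailless RNA plays in the H1f4 result was not tested.

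Markers of other liver cells were low beside those of hepatocytes. Summed over 6 cholangiocyte genes they came to 34.7 to 47.4 CPM in 2n-whole and 16.404 to 31.2 CPM in 4n-whole. In 4n-bottom they came to 21.3 to 30.5 CPM and in 4n-top to 17.8 to 32.0 CPM. In 4n-whole 2 of the 4 tested, Sox9 and Spp1, were called lower than in 2n-whole by edgeR (3.47% of all tested genes were called). The sum was mostly Sox9 and Spp1, with 30.8 and 9.61 CPM in 2n-whole and 20.4 and 1.35 in 4n-whole. Krt19, Krt7, Epcam and Cldn7 had a mean of at most 0.717 CPM in any population, so the sum says little about bile duct cells at large. Summed Kupffer cell markers were 0.222 to 7.64 CPM in 2n-whole and 0.822 to 2.00 in 4n-whole, endothelial markers 9.84 to 17.4 and 2.40 to 22.4, stellate markers 2.83 to 6.26 and 2.37 to 3.94, lymphocyte markers 0.115 to 0.518 and 0 to 0.316, neutrophil markers 0.0604 to 0.348 and 0 to 0.722, and erythroid markers 65.0 to 84.6 and 53.0 to 82.2. The median Kupffer sum was 4.73 CPM in 2n-whole and 1.02 in 4n-whole. Of the tested genes, 0 of 5 Kupffer, 1 of 6 endothelial and 1 of 4 stellate genes lay above 0 in this comparison, and edgeR called none of these. The erythroid sum was nearly all Alas2, with 75.0 CPM in 2n-whole and 69.5 in 4n-whole. The next of these genes was Hba-a1 in 2n-whole (0.474 CPM, with an SD of 0.948) and Slc4a1 in 4n-whole (0.0632 CPM). Hepatocyte markers were 80393 to 90063 CPM in 2n-whole and 69195 to 92295 in 4n-whole, so the labelled cell type held in both. No defining marker was at 0 in every library except 2 neutrophil genes and Hbb-bs, and the part of other cells in the histone values was not tested.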

How the data were processed

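RNA libraries were made from total RNA of sorted hepatocytes with a SMART-Seq stranded kit. Reads were aligned by the authors to GRCm39 with STAR (2.7.11a per the submitters' processing notes) and assigned to genes with featureCounts of the Subread package. The deposited table holds raw counts of 55984 genes in 15 libraries, not normalized. Total counts ran from 22049498 to 42096421 per library. The annotation, the strand setting and the handling of read pairs and of multiply mapped reads are not given in the sources used here. Among counts of 1 to 10, between 74.2% and 81.4% per library were even, so a count may be less than a fragment, and floors cover counting error only.

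Counts were tested with edgeR 4.0.16 in R 4.3.3 (TMM scaling, genes kept at counts of at least 10 per library and 15 in total by filterByExpr, 15 libraries in 1 fit, population plus mouse, quasi-likelihood F test, Benjamini-Hochberg adjustment over 17488 genes). Genes were called where the adjusted p was below 0.05 and the log2 fold change exceeded 0.5 in size. The subject numbers of the labels name the mice and pair the libraries. After the population means were removed, libraries of the same mouse correlated at 0.158 on average (0.0845 to 0.227, 20 of 21 pairs above 0.1). Alternatives were the fit without the mouse block, DESeq2 1.42.0, ComBat-seq of sva 3.50.0 before DESeq2, other size factors, no filter, the compared populations alone, no fold limit, and leaving out each mouse. Library totals without TMM in edgeR were added after seeing the data. The code was tested on simulated counts.

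Exon lengths, positions, stem-loops, promoters and unique windows were computed from GRCm39 and GENCODE M39 with Python 3.11.15. The members, gene lists and tests were chosen with earlier results of these data known. Members named with values were any that were called, the 3 highest per kb among the tested members of each type, and that of the smallest p in each comparison. From the lists these were the called genes, that of the smallest p, and Slbp, Npat, H3f3a, H3f3b, H2az1, H1f0 and Mki67. Marker genes of cell types were only summed and counted, and 1 gene that the rule would name is not reported here. With the mouse block, p-values rest on the spread that is left once the level of each mouse is removed. Without the block, the spread between mice enters them.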

Additional observations from a re-analysis of the deposited data

Results flagged for a closer look

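In 66 groups of 4 libraries, each holding the values of a named member or a summed type in a population, 4 had a library that stood far from the others by Dixon's criterion, which sets the gap to the nearest value over the range, where chance gives 3.3. H2ac20 had 2.18 CPM in 4n-bottom of mouse 2, against 0.886 to 1.03 in the other mice. H2bc8 had 5.99 CPM in 4n-bottom of mouse 4, against 3.12 to 3.26. H2bc11 had 0.747 CPM in 2n-whole of mouse 4, against 0 to 0.0905. H4c3 had 12.36 CPM in 4n-whole of mouse 3, against 8.66 to 8.98. The libraries belong to 3 different mice.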

How the results depend on the processing

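The log2 fold change of H1f4 in 4n-whole against 2n-whole stayed between 0.37 and 0.54 under the alternatives that scale by TMM or size factors and was 0.67 with library totals in edgeR, while its adjusted p ran from 0.000262 (ComBat-seq, then DESeq2) to 0.50 (edgeR without the mouse block), and the cause was not tested. H1f4 was the member called without mouse 2, and the member called without a fold limit (1 in each), so leaving out each mouse gave 0 to 1 members called. In that comparison ComBat-seq with DESeq2 called 1 member (H2ac15). DESeq2 with the mouse block called 4, 1, 2 and 4 members in 4n-whole against 2n-whole, 4n-top against 4n-bottom, 4n-bottom against 2n-whole and 4n-top against 2n-whole, of which 1, 0, 0 and 1 had passed the edgeR filter.

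Over all genes, and in the same order, edgeR called 607, 2, 81 and 168. Without the mouse block it called 40, 0, 0 and 2, and DESeq2 with the mouse as replicate block called 4606, 3003, 3867 and 4433, of which 889, 103, 318 and 511 had passed the edgeR filter. Without a filter on low counts edgeR called 25, 145 and 261 in the last 3 comparisons. Leaving out each mouse gave 244 to 1025, 0 to 29, 49 to 111 and 98 to 238, with the fewest without mouse 4.

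With library totals in place of TMM, edgeR called 3 members in 4n-whole and 1 in 4n-top against 2n-whole, and none in the other comparisons. In 4n-whole against 2n-whole H1f2 then passed the adjusted p (0.37, adjusted p = 0.0304 in edgeR), and values changed sign for H2bc4 (0.16), H2bc8 (0.048), H3c1 (0.057) and H4c3 (0.14), as did H4c4 in 4n-top against 4n-bottom (0.043). This scaling was chosen after seeing the data.

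Scaling to total counts in place of TMM shifts every log2 difference by 0.21, 0.03, 0.12 and 0.20, and gave 0.49 for summed H1 and 0.33 for all members in 4n-whole against 2n-whole, and 0.54 for H1 in 4n-top against 2n-whole. As a difference of group means with no replicate block, H1 gave 0.10 in 4n-top against 4n-bottom. Without its most abundant member, H2A gave 0.60 in 4n-whole and 0.83 in 4n-top against 2n-whole, and H2B gave -0.32 in 4n-whole against 2n-whole and -0.26 in 4n-top against 4n-bottom.

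Single genes changed sign. H2ac4 in 4n-whole gave -0.13 with no replicate block. With each mouse left out in 4n-whole against 2n-whole, it ran from -0.60 to 0.87, H2bc4 from -0.139 to 0.0414, H2bc8 from -0.51 to 0.21, H2bc11 from -2.71 to 2.74, H3c1 from -0.63 to 0.21, H4c4 from -0.12 to 0.24, H4c3 from -0.213 to 0.0235 and H2bc9 from -1.02 to 0.0082. In 4n-top against 4n-bottom H1f4 gave -0.019 with the compared libraries alone and -0.017 to 0.162 with each mouse left out, and H4c4 -0.13 to 0.15.

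With 3 or 4 mice a population, and counts near 0 for most H2A genes, only the abundant members bear a close estimate.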
